A study of Mus musculus with 6 samples.

Results

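The 9 genes described here are transcripts that mark naive T cells: Igfbp4, Dapl1, Il7r, Ccr7, S1pr1, Cd27, Treml2, Il6ra and Actn1. They were taken by name, with the highest row standing for each gene, and are 9 of 16911 gene symbols in the table. Each had a single row and all 9 passed the filter on low values. RNA was sequenced from sorted naive CD4 T cells of C57BL/6 mice in 2 groups, 3 libraries with the genotype Trim28 KO (KO1 to KO3) and 3 from wild-type littermates (WT1 to WT3). The cells were purified on magnets and then by flow cytometry, and the titles carry the tag D0. The ages of the mice, the promoter or Cre driver behind the deletion, the deleted part of the gene, and whether the libraries of a group came from separate mice are not given in the sources used here. The p-values below therefore measure the spread between these libraries. Trim28 encodes a corepressor that DNA-binding zinc finger proteins bring to chromatin. Values are normalized read counts, meaning reads divided by a size factor for each library.

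Naive T cells circulate between blood and lymph nodes and stay alive without dividing, and the proteins of these genes serve that life. Il7r encodes the receptor chain for interleukin-7, the survival cytokine of resting T cells. Ccr7 leads the cells into lymph nodes and S1pr1 leads them out again. Cd27 and Treml2 encode surface receptors, Il6ra encodes the binding chain of the interleukin-6 receptor, and Igfbp4 encodes a secreted protein that holds insulin-like growth factors. Dapl1 and Actn1 do not belong on the surface: Dapl1 encodes a small protein related to Dap, a regulator of autophagy, and Actn1 encodes an actinin that crosslinks actin filaments.

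Trim28 was read first, as a check of the labels. It stood at 738, 628 and 1247 normalized reads in KO1, KO2 and KO3, against 8429, 8287 and 9428 in WT1, WT2 and WT3, which is -3.38 ± 0.22 (SE) on the log2 scale with a limma adjusted p of 0.000135. Library depth ran from 22005759 to 44372701 reads. The T cell genes Cd3d and Cd4 were high in all 6 libraries, at 15774 to 18917 and 27990 to 34970 normalized reads. The sum of 12 CD4 T cell genes, Cd3d and Cd4 among them, was 150800, 145544 and 146237 in KO1, KO2 and KO3, against 165184 to 170483 in WT. Of these 12, 10 had a log2 fold change below 0, with a median of -0.14. Beside 12.7% of all rows tested, 4 of the 12 had an unadjusted p under 0.05, all lower in KO, and limma called 1. Cd44, which rises on memory cells, stayed between 60.0 and 89.2 and Foxp3, the factor that defines regulatory T cells, between 2.39 and 11.4. KO3 stood apart. In it, the summed level of 15 B cell markers was 7141, against 673 and 570 in KO1 and KO2 and 501 to 1283 in the WT libraries. The sum of 6 CD8 T cell markers was 7546 in KO3, against 1506 and 1562 in KO1 and KO2 and 1889 to 2408 in WT, and that of 21 myeloid markers was 5535, against 1217 and 1202 in KO1 and KO2 and 1411 to 2575 in WT. KO2 and WT1 carried Y-linked transcripts (12677 and 13625 normalized reads over 4 genes), and the other libraries had at most 2.39. In RNA from pooled cells, fewer cells of a type and less RNA per cell cannot be told apart.

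Several lists of other cell types and of cell stress also differed between the groups. The sum of 14 regulatory T cell markers was 8843, 8953 and 13289 in KO1, KO2 and KO3, against 7496 to 7810 in WT. Of 13 tested, 1 had a log2 fold change below 0, the median was 0.51, and 6 had an unadjusted p under 0.05, all higher in KO. So the row read for Foxp3 was near 0 in both groups while other genes of its list were higher in KO. Low values of the single rows read for Foxp3 and Cd44 do not show that regulatory or memory cells were absent. The 26 markers of activated and memory T cells summed to 63459, 65659 and 76323 in KO, against 60288 to 66670 in WT, with 5 of 26 below 0 and a median of 0.44. Il2ra, the interleukin-2 receptor chain held in both lists, was the gene called in each. It was at 358, 373 and 714 in KO against 172, 151 and 188 in WT. Its call was lost with voom weights, without the mean-variance trend and without KO2, WT1, WT2 or WT3. Adjusting for Y-linked reads also removed that call, as did keeping only the libraries that nearly lacked such reads. Platelet and erythroid markers summed to 3256, 2716 and 3729 in KO, against 6370 to 7689 in WT. Most of that was the integrin Itgb3, which fell (log2 fold change -1.29, limma adjusted p 0.000413), while the platelet gene Pf4 had 0.71 to 5.83 in KO and 0 to 10.04 in WT. Stroma markers summed to 530, 892 and 999 in KO, against 347 to 395 in WT, and most of that difference was Epcam, an epithelial adhesion gene. Epcam rose to 214, 592 and 706 in KO, against 72.5, 34.1 and 98.9 in WT (limma adjusted p 0.0294). It lost the call with voom weights, without the mean-variance trend and without KO2, WT1 or WT2. The Y-linked fits that removed the Il2ra call removed that of Epcam too. Of the 3 stroma genes tested, 2 had a log2 fold change below 0, with a median of -0.05. Early stress and dissociation genes, which respond to handling of cells, summed to 178702, 159144 and 165282 in KO, against 204979 to 219025 in WT. Beside 12.7% of all rows tested, 10 of 16 had an unadjusted p under 0.05, 9 of them lower in KO, with a list median of -0.27. The heat shock gene Hspa1a was called, at 84.2, 56.8 and 43.8 in KO against 264, 376 and 395 in WT. The 10 natural killer cell markers summed to 2859, 2122 and 2829 in KO, against 1934 to 2415 in WT. Of 6 tested, 0 were below 0, with a median of 0.95. The stroma and platelet differences lay mostly in single genes, and the activated and memory sums overlapped between the groups. Without KO3, limma called 11 of 81 tested markers of other cell types, 3 higher and 8 lower in KO. Of the activated and memory markers, 5 were among them. That fit called 553 of 12856 rows, 354 higher and 199 lower. The part of these lists in the levels of the 9 genes was not tested.

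Igfbp4 and Dapl1 were lower in the Trim28 KO libraries than in WT, and no other gene of the 9 passed the test. Igfbp4 fell to 39.4% of its WT mean and Dapl1 to 62.4%. Those 2 of 9 were called by limma at an adjusted p under 0.05, both lower in KO. Over 19 other settings, Igfbp4 kept its call in 18 and Dapl1 in 12. Among all 13022 rows tested, 1.51% were called, 0.315% as lower and 1.19% as higher. The median log2 fold change of the 9 genes was -0.10, beside 0.0019 over all rows tested, with 6 of the 9 below 0. In 5 of the 9 the KO and WT values did not overlap, 4 of them lower (Igfbp4, Dapl1, Il7r and S1pr1) and 1 higher (Treml2), where 18.8% of all tested rows did not overlap, 9.58% lower and 9.21% higher. An unadjusted p under 0.05 was reached by the same 5 genes, and by 12.7% of all rows, 5.84% lower and 6.84% higher. Each of these 5 had p = 0.1 in an exact permutation test (two-sided), the smallest that 3 libraries against 3 allow. The 9 genes were chosen with earlier results of these data known, so their counts beside the shares of all rows are not a test.

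**Figure D1:**
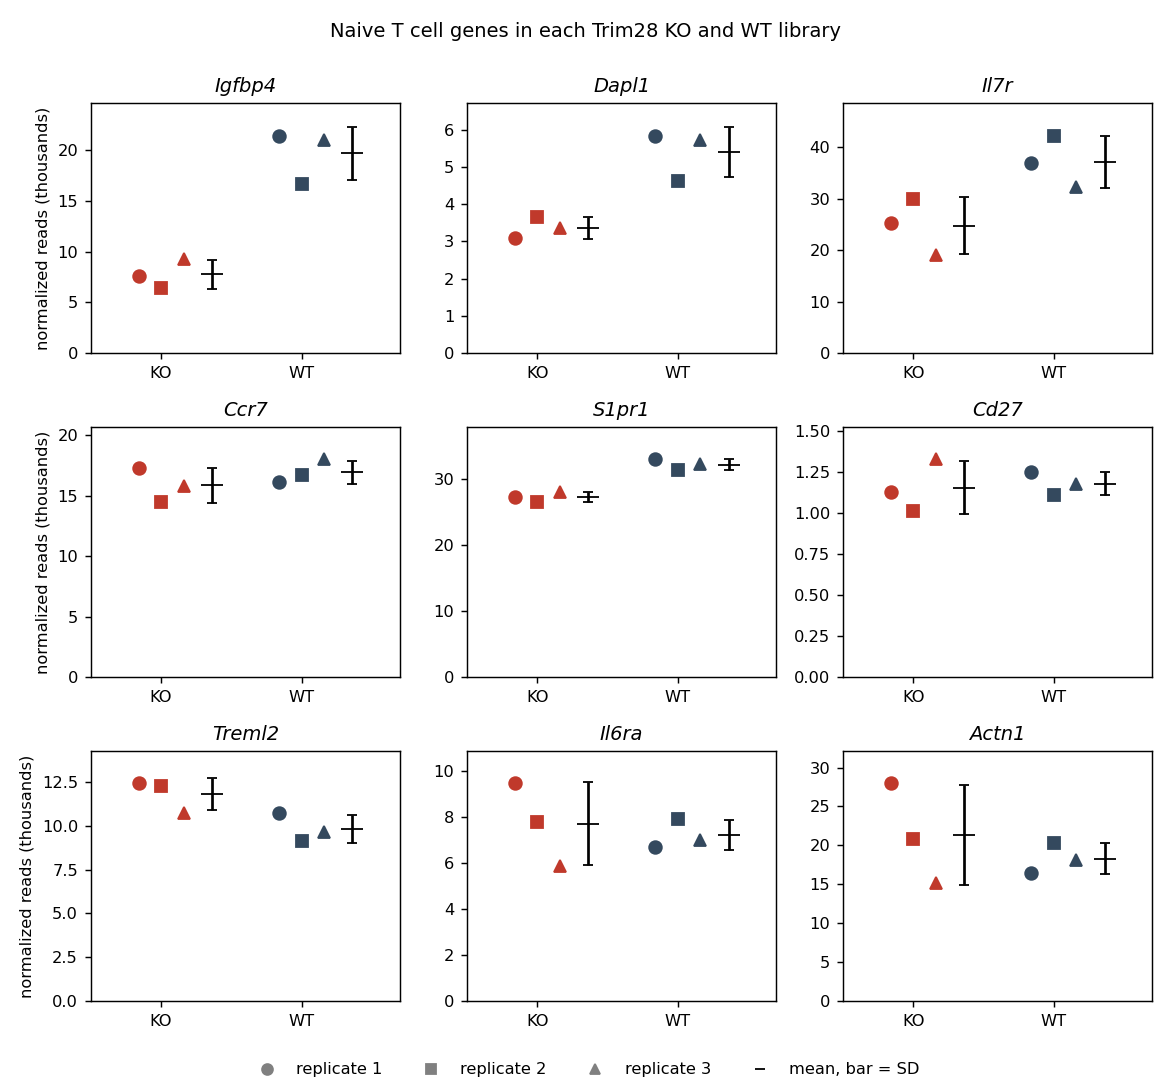
Normalized read counts (y axes, each from 0) of the 9 genes in the 3 KO and 3 WT libraries, with marker shape giving the replicate number and the black bar the mean ± SD. Igfbp4, Dapl1, Il7r and S1pr1 lie lower in every KO library than in any WT library, Treml2 lies higher, and Ccr7, Cd27, Il6ra and Actn1 overlap.

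Promoter sequences are shown for Igfbp4 and Dapl1, since those genes were the called ones. They are the 250 bases before the annotated start, from RefSeq on GRCm38.p6, written 5′ to 3′ along the gene. Promoters were given for 6 of the 9 genes, and the Igfbp4 start used lies inside the span of the gene. Capitals mark matches, on either strand, to 4 short motifs of factors known in naive T cells: GTAAACA (FOXO factors), CTTTGA (TCF/LEF factors), CACCC (KLF factors) and GGAAG (ETS factors).
Igfbp4 (chr11:99040994-99041243, + strand): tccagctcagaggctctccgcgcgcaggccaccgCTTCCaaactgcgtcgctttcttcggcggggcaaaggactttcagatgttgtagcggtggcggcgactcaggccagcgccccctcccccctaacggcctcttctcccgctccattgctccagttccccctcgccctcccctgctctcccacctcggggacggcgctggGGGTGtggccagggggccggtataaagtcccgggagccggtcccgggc
Dapl1 (chr2:59484403-59484652, + strand): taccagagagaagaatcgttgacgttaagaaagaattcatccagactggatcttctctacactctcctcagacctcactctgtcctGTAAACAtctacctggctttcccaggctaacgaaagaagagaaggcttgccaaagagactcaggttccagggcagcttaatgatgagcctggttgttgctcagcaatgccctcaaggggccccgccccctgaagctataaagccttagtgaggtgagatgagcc
The Dapl1 window held 1 FOXO match, 164 bases before the start, and no other. FOXO matches occurred in 3.17% of all 32851 promoter windows, and in none of the other 5 windows of these genes. The Igfbp4 window held 1 KLF match, 48 bases before the start, and 1 ETS match, which 52% and 64.1% of all windows also held. None of the 6 windows held the TCF/LEF letters, found in 13.8% of windows. These are matches of letters only. The Igfbp4 window was 69.2% G or C and the Dapl1 window 50%, beside a median of 52.4% over all windows.

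Igfbp4 (row NM_010517, chromosome 11, positions 99040005 to 99052655 of GRCm38) was at 7576, 6447 and 9218 normalized reads in KO1, KO2 and KO3, against 21397, 16675 and 20936 in WT1, WT2 and WT3. The highest KO value lay well below the lowest WT value. The means were 7747 ± 1393 in KO and 19669 ± 2604 in WT (SD, n = 3 per group). On the log2 scale KO differed from WT by -1.35 (SE 0.15, 95% interval -1.69 to -1.01), with a limma adjusted p of 0.00199. Its p ranked 72nd of all tested rows. Between the 4 libraries with nearly no Y-linked transcripts, KO1 and KO3 against WT2 and WT3, the log2 fold change was -1.16 (SE 0.17) and missed the threshold (limma adjusted p 0.104). KO2 and WT1, the other 2 libraries, had 6447 and 21397. Without KO3 it was -1.48 (limma adjusted p 0.000126). Within each group the order of the libraries was KO3, KO1, KO2 and WT1, WT3, WT2 from high to low, which is also the order of the summed B cell markers in each group. KO1 and KO2 held fewer B cell marker reads than WT1 and WT3 but more than WT2, and KO3 held the most of all. Igfbp4 was at 38.5%, 32.8% and 46.9% of the WT mean in KO1, KO2 and KO3. The part of other cells in these levels was not tested.

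Igfbp4 and Ccr7 are neighbours on chromosome 11, with 91.5 kb between them, and Ccr7 did not pass. Ccr7 (positions 99144199 to 99155077), the receptor for the chemokines of lymph node T cell zones, was at 17319, 14453 and 15798 normalized reads in KO1, KO2 and KO3, against 16133, 16718 and 17983 in WT1, WT2 and WT3. The groups overlapped, and the log2 fold change was -0.10 (SE 0.10, 95% interval -0.32 to 0.12, limma adjusted p 0.721). That interval leaves room for a fall to 0.80 of the WT level or a rise to 1.09 of it. Of 17 tested genes within 500 kb of Igfbp4, limma called 0, as it did with voom weights. Beside 12.7% of all rows tested, 1 of the 17 had a raw p under 0.05, and their median was -0.0018 on the log2 scale. Without KO3, 2 of them were called. These were Ormdl3, a regulator of sphingolipid synthesis, at 1388, 1473 and 1642 in KO against 1931, 1881 and 1930 in WT, and Top2a, a topoisomerase of dividing cells. Top2a, the nearest tested gene, was at 453 and 514 in KO1 and KO2 and 3120 in KO3, against 1378, 852 and 1391 in WT1, WT2 and WT3. These neighbours were chosen after the values of Igfbp4 were seen.

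**Figure D2:**
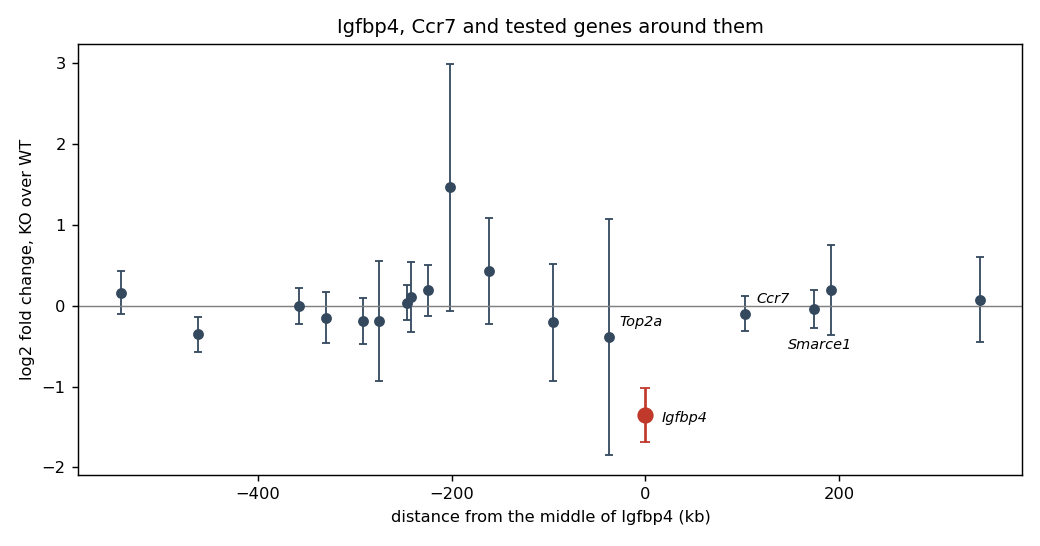
Log2 fold change of KO over WT with its 95% interval (y axis) for Igfbp4, in red, and the tested genes within 500 kb of it (x axis, distance in kb from the middle of Igfbp4). Igfbp4 is at -1.35, Ccr7 at -0.10, and the interval of Top2a is wide.

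Igfbp4 binds insulin-like growth factors, and the receptor of those factors moved the other way. Igf1r rose to 6278, 4793 and 4667 normalized reads in KO1, KO2 and KO3, against 1570, 2030 and 1635 in WT1, WT2 and WT3. The groups lay far apart, at 1.58 ± 0.14 (SE) on the log2 scale with a limma adjusted p of 0.000706. It was the gene called among 7 tested of the insulin-like growth factor system, and it kept its call in 18 of 19 other settings, the exception being the libraries with nearly no Y-linked transcripts (adjusted p 0.0664). Among all rows tested, 1.51% were called and 12.7% had an unadjusted p under 0.05, 6.84% as higher. Such a p was reached by 4 of the 7, Igf1r and 3 others, all higher in KO. Igf2r, which clears Igf2, averaged 12632 in KO and 10834 in WT (limma adjusted p 0.331), Lrp6 averaged 7339 in KO and 5939 in WT (limma adjusted p 0.393), and Stc2 was low, at 12.1 to 40.6 in KO and 1.39 to 8.80 in WT. The binding proteins Igfbp2, Igfbp3, Igfbp5 and Igfbp6 and the ligand Igf2 were at or near 0 in every library, the highest being Igfbp6 at 11.2 in KO3.

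Dapl1 (row NM_029723, chromosome 2, positions 59484653 to 59505020) was at 3087, 3669 and 3351 normalized reads in KO1, KO2 and KO3, against 5841, 4632 and 5714 in WT1, WT2 and WT3. All KO values lay below the lowest WT value. The means were 3369 ± 292 in KO and 5396 ± 665 in WT (SD, n = 3 per group). On the log2 scale the difference was -0.68 (SE 0.11, 95% interval -0.94 to -0.41), with a limma adjusted p of 0.0246. The call was lost without KO1, without KO2, without WT1 and without WT3, at adjusted p from 0.0630 to 0.158, while the log2 fold change stayed between -0.78 and -0.61 over all 6 such fits. Between the libraries with nearly no Y-linked transcripts it was -0.68 (limma adjusted p 0.348). Of 14 tested relatives and autophagy or mTOR genes limma called 0, as it did with voom weights. Beside 12.7% of all rows tested, 1 of the 14 had an unadjusted p under 0.05. That was Ddit4, an inhibitor of mTOR, at 6826, 7917 and 6206 in KO against 10051, 9376 and 9555 in WT (limma adjusted p 0.0756). Dap itself averaged 1149 in KO and 1307 in WT, and its groups overlapped.

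Il7r (row NM_008372, chromosome 15, positions 9506159 to 9529941) was at 25357, 30019 and 19013 normalized reads in KO1, KO2 and KO3, against 36872, 42275 and 32322 in WT1, WT2 and WT3. The groups did not overlap, but the KO libraries were spread widely and KO3 was the lowest. The means were 24797 ± 5525 in KO and 37156 ± 4983 in WT (SD, n = 3 per group). The log2 fold change was -0.60 (SE 0.17, 95% interval -0.99 to -0.21) with a limma adjusted p of 0.175, so the gene did not pass. Without KO3 it was -0.42 (limma adjusted p 0.0967), and between the libraries with nearly no Y-linked transcripts -0.75. Il2rg, the chain that pairs with Il7r, averaged 14358 in KO and 13614 in WT (log2 fold change 0.07, SE 0.13). Of 22 tested genes of interleukin-7 signalling limma called 0, as it did with voom weights. Beside 12.7% of all rows tested, 2 of the 22 had an unadjusted p under 0.05, both lower in KO. They were Bcl2l11, a death gene that interleukin-7 holds down, at 133 in KO and 174 in WT, and Pik3cd, a kinase subunit, at 369 in KO and 453 in WT. Interleukin-7 itself comes from other cells, and Il7 had at most 2.91 normalized reads.

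S1pr1 (row NM_007901, chromosome 3, positions 115710433 to 115715055) varied least among the 9 genes. It was at 27354, 26555 and 28148 normalized reads in KO1, KO2 and KO3, against 33006, 31383 and 32314 in WT1, WT2 and WT3. The highest library was 1.06 times the lowest in KO and 1.05 times in WT, and the groups lay apart. The KO mean was 84.9% of the WT mean, a log2 fold change of -0.24 (SE 0.08, 95% interval -0.42 to -0.05) with a limma adjusted p of 0.263, which did not pass. Among 31 tested genes of Ccr7 and S1P receptor migration limma called 0, as it did with voom weights, and 5 had an unadjusted p under 0.05, beside 12.7% of all rows tested. All 5 had a lower mean in KO, with a list median of 0.04. Rasgrp2, which switches on the integrin GTPase Rap1, was at 6466, 5095 and 6315 in KO against 8062, 7933 and 9554 in WT (limma adjusted p 0.0978). Klf2, a factor that drives S1pr1, averaged 7210 in KO and 8588 in WT, and S1pr4, another receptor of the family, averaged 4794 in KO and 6079 in WT. Cd69, which pulls the S1pr1 protein off the surface of activated cells, averaged 9800 in KO and 13509 in WT. Without KO3, 1 gene of the list was called, Rasgrp2.

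Igfbp4 and S1pr1 had the highest correlation of any pair of the 9 over the 6 libraries, but not within the groups, where Il6ra and Actn1 were higher, at 0.994. On the log2 scale the Pearson r of Igfbp4 with S1pr1 was 0.998, and with each group's mean removed it was 0.972, although the KO mean was 39.4% of the WT mean for Igfbp4 and 84.9% for S1pr1. Among 8576 genes with a mean of at least 100, S1pr1 was the closest to Igfbp4, and Tmsb10, a small actin-binding protein, was the closest to S1pr1. Tmsb10 was at 1216, 1150 and 1298 in KO against 1652, 1534 and 1593 in WT. These values describe 6 libraries, whose depth and cell make-up all genes share.

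Treml2 (row NM_001033405, chromosome 17, positions 48299390 to 48312534), a receptor of the TREM family found on myeloid cells, B cells and T cells, was the only one of the 9 whose KO values all lay above the WT values. It was at 12407, 12238 and 10753 normalized reads in KO1, KO2 and KO3, against 10698, 9115 and 9630 in WT1, WT2 and WT3. KO3 and WT1 nearly touched. The log2 fold change was 0.27 (SE 0.10, 95% interval 0.04 to 0.49) with a limma adjusted p of 0.302, and 0.33 without KO3 (limma adjusted p 0.0855), neither of which passed. The relatives Trem1, Trem3 and Pigr and the Cd300 genes Cd300c, Cd300lf and Cd300lb were under 13 normalized reads in every library. Tyrobp, the signalling adaptor of myeloid TREM receptors, was at 87.1 and 61.2 in KO1 and KO2 and 396 in KO3, against 60.0 to 88.1 in WT. Of the 2 tested genes of the family limma called 0, as it did with voom weights, and 0 had an unadjusted p under 0.05.

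Cd27 (row NM_001033126, chromosome 6, positions 125232620 to 125237136), a costimulatory receptor of the TNF receptor family, was at 1128, 1011 and 1327 normalized reads in KO1, KO2 and KO3, against 1249, 1111 and 1176 in WT1, WT2 and WT3. The groups overlapped, with KO3 the highest of all. The log2 fold change was -0.04 (SE 0.12, 95% interval -0.31 to 0.24), and over the 19 other settings it ran from -0.14 to 0.10, with 0.02 at equal totals. Its library order within each group was the same as that of Igfbp4, S1pr1 and the B cell markers. A non-coding gene, E130112N10Rik, overlaps Cd27 and averaged 251 in KO and 200 in WT, and reads of the 2 genes may be shared. Of 16 tested genes of Cd27 signalling limma called 0, as it did with voom weights. Beside 12.7% of all rows tested, 1 of the 16 had an unadjusted p under 0.05. That gene was Birc3, an inhibitor of cell death, at 5799 in KO and 4926 in WT. Cd70, the ligand gene of Cd27, had at most 0.71 normalized reads.

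Il6ra and Actn1 varied together and were the most uneven of the 9 in the KO libraries. Il6ra (row NM_010559, chromosome 3, positions 89869324 to 89913196) was at 9467, 7796 and 5876 normalized reads in KO1, KO2 and KO3, against 6707, 7939 and 7000 in WT1, WT2 and WT3. Actn1 (row NM_134156, chromosome 12, positions 80167542 to 80260420) was at 27953, 20791 and 15211 in KO1, KO2 and KO3, against 16485, 20352 and 18083 in WT1, WT2 and WT3. For both, KO1 was the highest library of all and KO3 the lowest, so the WT values lay inside the KO range. The highest KO library was 1.84 times the lowest for Actn1, against 1.23 times in WT, and 1.61 times for Il6ra, against 1.18 times in WT. Their Pearson r over the 6 libraries was 0.982. The gene closest to Actn1 was Bptf, a chromatin remodelling subunit (r 0.998), at 24259, 19093 and 14572 in KO against 15346, 18710 and 16525 in WT. Cd3e, a T cell receptor chain, was also highest in KO1, at 13743, 9911 and 5730 in KO against 5077, 8097 and 5369 in WT.

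The log2 fold change was 0.07 for Il6ra (SE 0.16, 95% interval -0.30 to 0.44) and 0.18 for Actn1 (SE 0.20, 95% interval -0.27 to 0.63). Without KO3 they were 0.26 and 0.40, with limma adjusted p of 0.235 and 0.130, and without KO1 they were -0.09 and -0.04, so the sign of either gene rests on single KO libraries. Il6st, the signalling chain that joins Il6ra, averaged 23191 in KO and 19519 in WT (limma adjusted p 0.414). Il27ra, whose product joins the same Il6st chain, was the gene called among 13 tested of the interleukin-6 list, beside 1.51% of all rows tested. It fell to 8335, 7439 and 8469 in KO1, KO2 and KO3, against 11554, 11569 and 11894 in WT1, WT2 and WT3 (log2 fold change -0.53, SE 0.08, limma adjusted p 0.0169). Il27ra kept its call in 12 of 19 other settings. The call was lost without KO2, WT1, WT2 or WT3, with equal totals and without the mean-variance trend (limma adjusted p 0.101). It was also lost between the libraries with nearly no Y-linked transcripts (limma adjusted p 0.391). Of 19 tested genes of actinin and adhesion limma called 0, as it did with voom weights, and the 6 with an unadjusted p under 0.05, beside 12.7% of all rows tested, were all higher in KO, with a list median of -0.02. Among them Actn2, the muscle actinin, was at 243, 265 and 333 in KO against 106, 177 and 161 in WT (limma adjusted p 0.103). Zyx, a focal adhesion protein, was at 232, 178 and 118 in KO against 79.5, 111 and 100 in WT, and without KO3 it was called. Actn4, the other actinin of blood cells, averaged 5407 in KO and 5671 in WT.

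**Figure D3:**
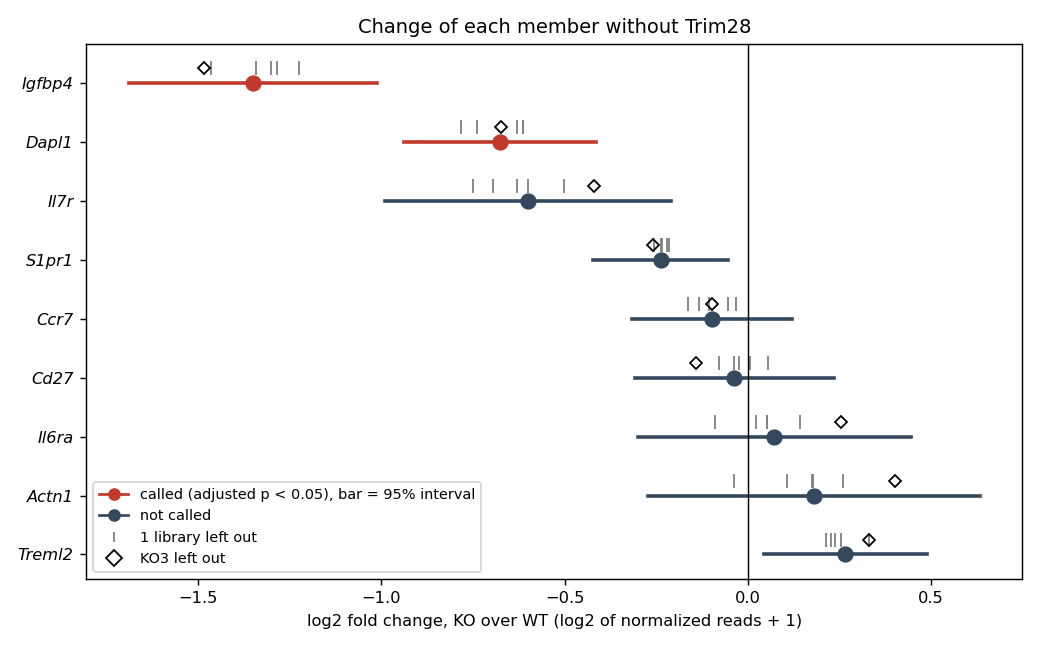
Log2 fold change of KO over WT (x axis) for the 9 genes, with the 95% interval as a bar, fits with 1 library left out as ticks and the fit without KO3 as a diamond. The intervals of Igfbp4 and Dapl1, in red, lie furthest below 0, and those of Ccr7, Cd27, Il6ra and Actn1 cross 0.

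Divided by transcript length, 8 of the 9 genes stood among the top 5.28% of 18607 rows with a length in both groups, and Cd27 within the top 16.2% of rows in KO and 16% in WT. In WT the highest per kb was S1pr1, at 10582 ± 267 normalized reads per kb, followed by Il7r at 10496 ± 1408, Dapl1 at 9417 ± 1160 and Ccr7 at 8567 ± 478 (SD, n = 3). S1pr1 and Il7r did not differ there beyond their spread. In KO the order was S1pr1 at 8980 ± 261, Ccr7 at 8016 ± 725, Il7r at 7005 ± 1561 and Dapl1 at 5880 ± 509. Igfbp4 stood at 2022 ± 364 normalized reads per kb in KO and 5134 ± 680 in WT, which placed it 983rd in KO and 304th in WT among the rows. Lengths are those of GENCODE M21 transcripts matched to each row.

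Other genes of the naive state showed small differences, none of which passed. Of 27 tested, limma called 0, as it did with voom weights, with a median log2 fold change of -0.13 beside 0.0019 over all rows. An unadjusted p under 0.05 was reached by 8 of them, beside 12.7% of all rows tested, 7 lower in KO and 1, Ramp1, higher. The 7 included Klf2 and Rasgrp2, given above, St6gal1, a sialyltransferase, at 615 in KO and 814 in WT, and Btg2, an antiproliferative gene, at 15087 in KO and 18388 in WT. Tcf7, Foxo1 and Lef1, transcription factors of the naive state, overlapped between the groups, while Klf2 did not. Tcf7 averaged 27298 in KO and 23379 in WT, Foxo1 11286 in KO and 9469 in WT, and Lef1 390 in KO and 364 in WT. Without KO3, 2 of the 27 were called, Rasgrp2 and St6gal1, both lower. Thy1, a general T cell surface protein, fell to 9584 in KO, against 16309.5 in WT (log2 fold change -0.77, limma adjusted p 0.00409). The part of other cells and of the stress genes in these differences was not tested.

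**Figure D4:**
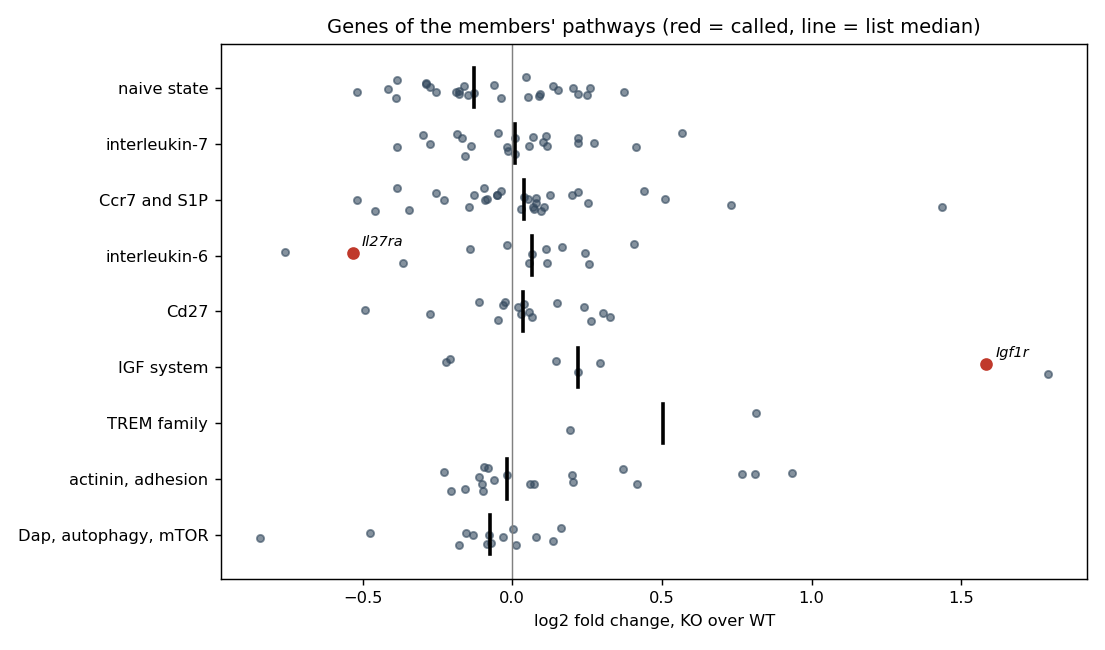
Log2 fold change of KO over WT (x axis) of every tested gene in the 9 lists linked to the members (rows), with list medians as black lines and called genes in red. Igf1r lies to the right at 1.58 and Il27ra to the left at -0.53, and the medians of the lists with more than 2 genes lie between -0.13 and 0.22.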

How the data were processed

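The submitters' processing notes name the build mm10 and the tools HTSeq, STAR and DESeq2, without versions. Values for 19048 RefSeq rows were deposited by the authors on a log10 scale. Turned back as 10 to the value minus 1, 100% of the values in each library were whole multiples of 1 step, within 0.01, so the deposited values are log10 of (reads divided by a size factor, plus 1). Rows were named from RefSeq (GRCm38.p6, the assembly of mm10, 18807 rows) and GENCODE M21 (108 rows), and 133 stayed unnamed. Whether counting used strand is not stated in these sources.

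The test was limma 3.58.1 in R 4.3.3 on log2 of the normalized count plus 1, with the mean-variance trend, no covariate and all 6 libraries. It was fitted to the 13022 rows with a mean of at least 10, with Benjamini-Hochberg adjustment over all of them, and a two-sided adjusted p under 0.05 was a call. The pseudocount understates the change of low genes. The fit was tested on simulated data. Exact permutation tests used scipy 1.17.1. The members and gene lists were chosen with earlier results of these data known. Named genes were the 9 members, Trim28, called genes and those with the smallest p in each linked list, the closest gene by Pearson r, and markers. Other genes with values here, such as Il2rg, Il6st, Tcf7, Foxo1, Lef1, Actn4, Dap, Cd3e, Thy1 and the neighbours, were picked after their values were seen. Alternatives covered the pseudocount, filter, scaling, variance model, recovered reads with voom weights, replicate block, Y-linked transcripts, summed rows and each library left out. Libraries of a group differed by more than counting noise. A gene of the lists is not reported here.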

Additional observations from a re-analysis of the deposited data

How the results depend on the processing

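Igfbp4 kept its direction in all 19 other settings and its call in 18, with log2 fold changes from -1.48 to -1.16. Dapl1 kept its direction in all 19 and its call in 12. Its call was also lost without the mean-variance trend (adjusted p 0.132). With only the libraries with nearly no Y-linked transcripts, 0 of the 9 genes were called in limma (3 at an unadjusted p under 0.05), 0 genes of the linked lists (10), 0 markers of other cell types (13) and 37 rows in all. Without the mean-variance trend these counts were 1, 1, 1 and 124, against 2, 2, 3 and 196 in the reported fit. With equal totals 1 gene of the linked lists was called, and with voom weights or Y-linked transcripts as a covariate 1 marker was. Leaving out 1 library at a time gave 1 to 2 of the 9 genes, 1 to 6 genes of the linked lists, 1 to 11 markers and 113 to 553 rows, the highest each time without KO3 except for the 9 genes, where the count was 2 without KO3 and without WT2. Trim28 stayed called in every setting. A scaling to equal totals moved the median over all rows to 0.057, the furthest of the 3 scalings.

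The deviations of same-numbered libraries from their group means had r of -0.31, 0.26 and 0.36, where differently numbered libraries ran from -0.44 to 0.37. These values do not settle whether the numbers are pairs, and the reported fit did not take them as pairs. With the replicate block 175 rows and 2 of the 9 genes were called, Igfbp4 and Il7r (adjusted p 0.0452), while Dapl1 missed (0.0699). The reads behind the 9 genes were at least 694 per library.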
